A study of Mus musculus with 9 samples.

Results

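The genes described here encode chaperones, folding enzymes and 1 transcription factor of the endoplasmic reticulum: Hspa5, Hsp90b1, Hyou1, Dnajb9, Dnajc3, Pdia3, Pdia4, Pdia6, Canx and Xbp1. They were chosen by name, and all 10 are among the 17769 genes of the deposited count table. The study sequenced RNA of MEP (megakaryocyte-erythroid progenitors) that had been isolated from mouse bone marrow by FACS, as part of work on metabolism in blood cells with mutant Jak2. The VF group carried SclCre and the V617F allele and was taken 12 weeks after tamoxifen. The E12 group carried SclCre and the exon 12 allele and was taken 6 weeks after tamoxifen, so neither its genotype nor its time matches the other groups. The WT group is labelled only as wild type and was taken 12 weeks after tamoxifen. All 3 groups have the strain background C57BL/6N in the labels, tamoxifen was given as 5 daily intraperitoneal injections, and each group has 3 libraries, numbered 1, 2 and 3 in VF, 1, 2 and 5 in E12, and 50, 51 and 52 in WT. SclCre is a Cre recombinase driven by Scl (Tal1) sequences that are active in blood stem and progenitor cells. Whether the WT animals carried it is not stated, nor whether replicates are separate mice, so p-values measure the spread between these libraries, which may be technical.

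Secreted and membrane proteins are folded in the lumen of the endoplasmic reticulum, where Hspa5 (BiP) binds unfolded chains, the Pdia proteins form and rearrange disulfide bonds, and calnexin holds glycoproteins until their sugars are trimmed. When unfolded chains pile up, the sensors Ern1 (IRE1), Eif2ak3 (PERK) and Atf6 start the unfolded protein response. Ern1 splices the Xbp1 messenger RNA, and the resulting factor, together with Atf6, is known to raise the transcription of many of the genes described here.

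The endoplasmic reticulum stress response element is the promoter sequence through which that response is known to act, written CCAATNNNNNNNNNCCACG, with any 9 bases between its ends. RefSeq promoters on GRCm38.p6, running from 250 bases before to 50 bases after the gene's start, were found for 9 of the 10 genes, all but Hyou1. An exact element on either strand was present in 5 of these 9 promoters, against 39 of 32851 promoters in the whole table (0.119%). The 39 include these 5. Many of the genes are known to be raised by that response, so a high share was to be foreseen and is not a test. The stretches below, printed in the direction of the gene with 20 bases on each side, are shown because they carry this shared feature, and the capitals mark the fixed ends of the element.
Hspa5: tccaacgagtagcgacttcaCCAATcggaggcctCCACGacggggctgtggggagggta
Hsp90b1: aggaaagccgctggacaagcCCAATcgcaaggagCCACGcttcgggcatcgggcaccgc
Dnajc3: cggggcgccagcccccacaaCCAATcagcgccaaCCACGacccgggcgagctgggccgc
Pdia6: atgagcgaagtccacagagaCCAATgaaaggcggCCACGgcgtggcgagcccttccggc
Canx: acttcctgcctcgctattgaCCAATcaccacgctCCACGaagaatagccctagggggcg
The Hspa5 stretch is chr2:34772005-34772063 on the plus strand, and its element ends 46 bases before the gene's start. The Hsp90b1 stretch is chr10:86705618-86705676 on the minus strand, and that promoter holds 2 exact elements, of which 1 is printed. The Dnajc3 stretch is chr14:118937807-118937865 on the plus strand. The Pdia6 stretch is chr12:17266471-17266529 on the plus strand, and the Canx stretch is chr11:50325780-50325838 on the minus strand. Pdia3 and Pdia4 matched at best 9 of the 10 fixed bases, Dnajb9 matched 8 and Xbp1 matched 7. The shorter letters CCACG and CCAAT, each counted alone on either strand and so including those inside an exact element, were in 7 and 8 of the 9 promoters, against 32.8% and 37.4% of all promoters. The core TGACGTG of another element of the response was in 1 of the 9, against 2.01% of all. These matches describe letters only.

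Total counts ran from 19254889 to 21329456 in the VF libraries, from 20326374 to 23496895 in the E12 libraries and from 33836759 to 39735307 in the WT libraries. The WT libraries differed in other ways too. Genes longer than 5 kb took 14.7% to 15.2% of counts in VF, 14.2% to 16.3% in E12 and 4.37% to 7.92% in WT. Genes shorter than 1 kb took 27.9% of counts in WT 50, which stood apart from every other library, against 6.92% to 14.1% in the other 8. Sample numbers in the labels form 1 run for the VF and E12 libraries and another for the WT libraries, so in a comparison with WT the genotype cannot be told apart from the series of libraries.

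Markers of other cells differed between the groups as well. The 9 promyelocyte and neutrophil markers, all with counts in every library, summed to 6900.5 to 12905 CPM (counts scaled to library size with TMM factors) in VF, 1418 to 2236 CPM in E12 and 253 to 1866 CPM in WT. Calls here are at an adjusted p under 0.05 in the edgeR fit described below. Over all genes, 27.7% were higher and 20.9% lower in VF than in WT, and 23.9% and 18.1% in E12. Of the 9 markers, 7 were higher and 0 lower in VF, and 2 were higher and 1 lower in E12. Mpo averaged 6889 CPM in VF and 129 CPM in WT, while Camp (73.4 and 476 CPM) and Ltf (80.9 and 105 CPM) had higher means in WT. The 10 markers of plasma cells, which are rich in folding proteins, and of B cells had at least 7 members with counts in every library and summed to 91.8 to 141 CPM in VF, 30.8 to 361 CPM in E12 and 141 to 1032 CPM in WT. Of these, Mzb1 reached 188 CPM in WT 50, while the plasma cell receptor Tnfrsf17 had at most 1 count in any library. The 15 erythroid markers, all with counts in every library, summed to 1011 to 1529 CPM in VF, 7441 to 36229 CPM in E12 and 22029 to 39966 CPM in WT. The top of the E12 range was E12 5, where the hemoglobin gene Hba-a1 had 9035 CPM, against 339 and 242 CPM in E12 1 and E12 2. Car2 and Car1 had the highest WT means in the list, at 15127 and 6600 CPM, against 5321 and 1796 CPM in E12. In VF 0 of the 15 were higher and 13 lower than in WT, and in E12 2 were higher and 3 lower. The median log2 fold change of the list in E12 against WT was 0.95, so the sums do not stand for each gene. Hba-a1 and Hba-a2 had nearly equal counts, as did Hbb-b1 and Hbb-bs, so the sums may hold some reads more than once. The 12 megakaryocyte markers, of which at least 7 had counts in every library, summed to 1571 to 2123 CPM in VF, 282 to 359 CPM in E12 and 52.1 to 178 CPM in WT, where Itgb3, Ppbp and Gp6 had 0 counts in all 3 libraries. The 7 mast cell and basophil markers, of which at least 3 had counts in every library, summed to 303 to 366 CPM in VF, 34.5 to 172 CPM in E12 and 25.7 to 122 CPM in WT, and the 10 monocyte and macrophage markers, of which at least 5 had counts in every library, to 425 to 509 CPM in VF, 159 to 344 CPM in E12 and 65.0 to 739 CPM in WT. The top of that WT range was WT 50, where Lyz2 alone had 690 CPM. Of the 9 monocyte and macrophage markers tested, 3 were higher and 0 lower in VF than in WT, and 2 were higher and 0 lower in E12. The part of these cells in the results below was not tested, and in such bulk libraries a shift in the mix of cells and a shift in RNA per cell cannot be told apart. A list of 12 gate and lineage markers of MEP is not limited to genes high in MEP, as it includes Cd34, Fcgr3, Fcgr2b and Ly6a. A higher value in it is therefore not by itself a gain of MEP marking. Of the 12, 6 were higher and 4 lower in VF than in WT, against 27.7% and 20.9% of all genes. In E12, 5 were higher and 2 lower than in WT, against 23.9% and 18.1% of all genes. The lower ones in VF were Klf1, Gata1, Gfi1b and Epor, of which Klf1 and Gfi1b were also lower in E12. Klf1 averaged 113 ± 46.8 CPM in VF, 716 ± 107 CPM in E12 and 2446 ± 879 CPM in WT. Gata1 averaged 194 ± 19.2 CPM in VF, 435 ± 51.5 CPM in E12 and 761 ± 309 CPM in WT. Gfi1b averaged 223 ± 39.5 CPM in VF, 429.7 ± 71.3 CPM in E12 and 1088 ± 195 CPM in WT, and the erythropoietin receptor Epor averaged 29.0 ± 5.70 CPM in VF, 141 ± 29.4 CPM in E12 and 164 ± 49.7 CPM in WT (SD, n = 3 each). In contrast, Kit was at 503 to 588 CPM in VF, 282 to 358 CPM in E12 and 60.8 to 188 CPM in WT, and Cd34 averaged 660 ± 23.2 CPM in VF, 211 ± 85.3 CPM in E12 and 3.63 ± 1.17 CPM in WT (SD, n = 3 each). Jak2 itself averaged 87.5 ± 4.71 CPM in VF, 38.9 ± 2.66 CPM in E12 and 24.0 ± 12.7 CPM in WT (SD, n = 3 each), and gene counts do not show the alleles.

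Together the 10 genes summed to 4761 ± 325 CPM in VF and to 4549 ± 570.0 CPM in E12, against 4633 ± 2270 CPM in WT (SD, n = 3 each). The mutant libraries lay close together, between 3966 and 5131 CPM, while the WT libraries were spread on both sides of them, with 2064 CPM in WT 50, 5469 CPM in WT 51 and 6367 CPM in WT 52. That placing depends on the TMM factors, which were 1.09 to 1.28 in the mutant libraries and 0.456, 0.841 and 0.869 in WT 50, 51 and 52. As a share of total counts, the 10 genes took 0.449% (E12 5) to 0.657% (VF 3) in the mutant libraries. In WT 50, 51 and 52 they took 0.0941%, 0.460% and 0.553%, so no WT library then lay above all mutant ones. In every member the ratio of the highest to the lowest library was larger in WT than in VF. For Pdia4 this ratio was 1.26 in VF and 1.40 in E12, against 12.7 in WT, and for Hspa5 it was 1.23 in VF and 1.52 in E12, against 7.66 in WT.

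**Figure D1:**
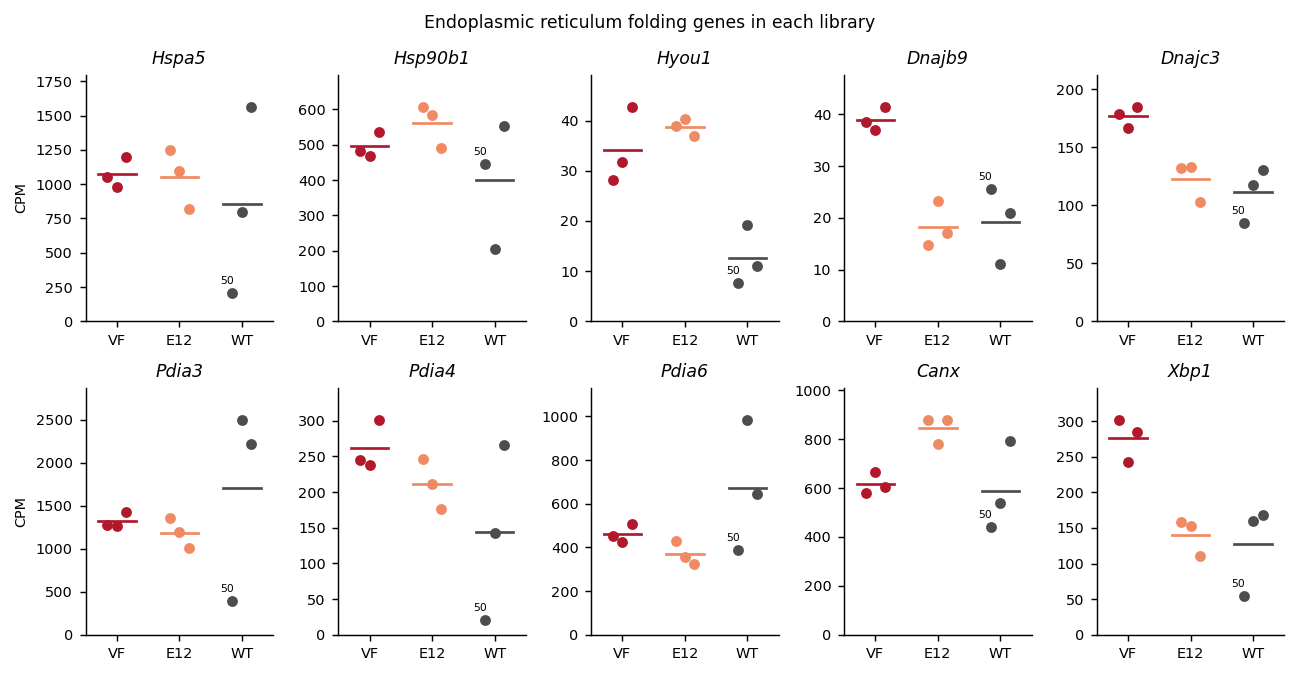
CPM of each of the 10 genes (vertical axis, linear, from 0) in every library of VF, E12 and WT (horizontal axis), with a bar at each group's mean; the number 50 marks WT 50. The 3 WT points lie far apart for Hspa5, Pdia3 and Pdia4, from 20.9 to 266 CPM in the case of Pdia4, while the VF points lie close together.

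Per kilobase of gene, in RPKM (CPM divided by the authors' gene length), Pdia3 and Hspa5 were the most abundant of the set in both mutant groups. In VF the order was Pdia3 at 501 ± 34.3 RPKM, Hspa5 at 411 ± 43.1, Pdia6 at 218 ± 19.9, Hsp90b1 at 179 ± 12.9, Canx at 144 ± 10.1, Xbp1 at 123 ± 13.4, Pdia4 at 105 ± 13.8, Dnajc3 at 34.1 ± 1.79, Dnajb9 at 20.9 ± 1.20 and Hyou1 at 7.72 ± 1.71 RPKM (SD, n = 3 each). Among neighbours in that order, Xbp1 and Pdia4 overlapped between libraries, and the other pairs did not. In E12 the levels were 449 ± 64.2 RPKM for Pdia3 and 403 ± 83.1 RPKM for Hspa5, which overlapped, and Hsp90b1, Canx and Pdia6 overlapped at 203 ± 22.7, 197 ± 13.02 and 174 ± 25.6 RPKM. Hyou1 stood lowest in WT too, at 2.86 ± 1.35 RPKM. By RPKM, Hspa5 ranked 74th to 104th of 13602 genes in VF and 74th to 159th in E12, against 157th to 2105th in WT.

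**Figure D2:**
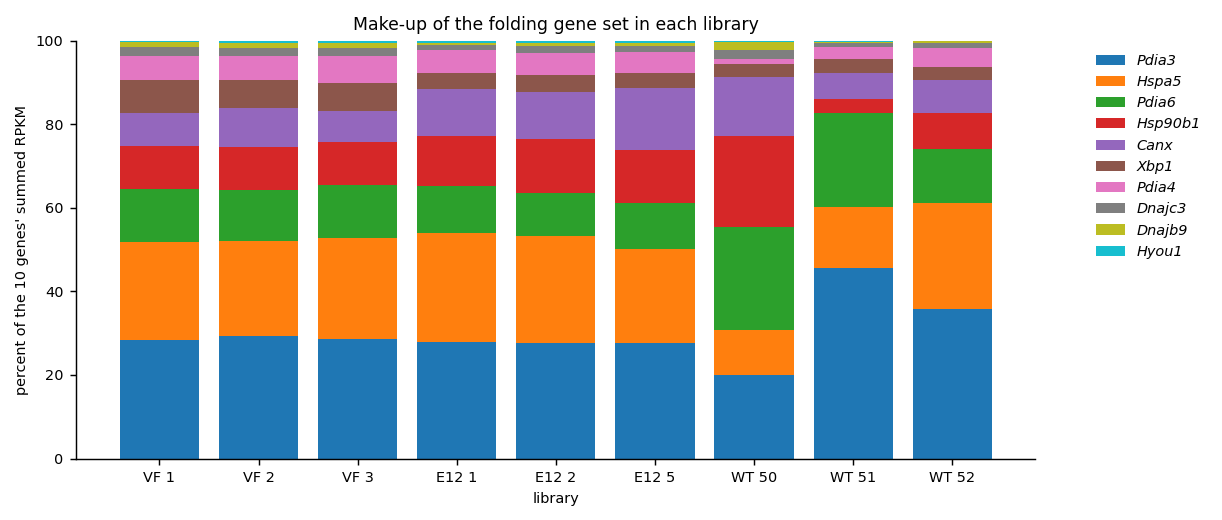
Percent of the summed RPKM of the 10 genes (vertical axis) taken by each gene in each library (horizontal axis). Pdia3 took 28.3% to 29.3% in VF and 27.6% to 27.99% in E12, against 20.1% to 45.6% in WT, and Hsp90b1 took 10.25% to 10.35% in VF and 12.0% to 12.98% in E12, against 3.57% to 21.8% in WT.

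For every member except Xbp1, the shares in the stacked plot spread less, as highest over lowest, within each mutant group than within WT. Between VF and E12 some shares did not overlap. Xbp1 took 6.59% to 7.89% in VF against 3.55% to 4.17% in E12, and Dnajb9 took 1.18% to 1.21% against 0.431% to 0.764%. Canx took 7.48% to 9.43% in VF against 11.2% to 14.8% in E12. In WT 50 Hsp90b1 stood at 2.06 times the level of Hspa5 per kilobase, whereas in the other 8 libraries it stood at 0.242 to 0.567 times that level. Each library was counted as a sample. No pair of replicates agreed within sampling noise by chi-square, which does not show whether they are separate mice.

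Each gene was tested with edgeR's quasi-likelihood test in 1 fit of all 9 libraries, with p-values adjusted over the 13602 genes that passed the filter on low counts, which all 10 members did. Against WT, 4 of the 10 were higher in VF, namely Hyou1, Dnajb9, Dnajc3 and Xbp1, and 0 were lower. DESeq2 called 3 of these higher (not Dnajb9), limma-voom called the same 4, and limma on the deposited log2 levels called 6, namely Dnajc3 and Xbp1 with Hspa5, Hsp90b1, Pdia4 and Canx, and neither Hyou1 nor Dnajb9. Over all genes, in either direction, DESeq2 called 7641, limma-voom 7561 and the deposited levels 6772, against 6612 by edgeR. These counts of members are thus not by themselves a result about folding genes. No member was lower by any of these tools or at an unadjusted p under 0.05 in edgeR. Over all genes tested, 27.7% were higher and 20.9% lower in VF, that is 3770 and 2842 genes, and with an offset for gene length described further on 2417 and 4061 genes. The VF and WT libraries did not overlap for those same 4 members, against 62.7% of all genes. The median log2 fold change of the 10 genes was 0.50, against 0.36 for all genes.

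In E12, 1 of the 10 genes was higher than in WT, which was Hyou1, against 23.9% of all genes, and 0 were lower, against 18.1% of all genes. These shares stand for 3249 and 2465 genes, and with the length offset 1774 and 2773 genes. The deposited log2 levels gave 3 higher, which were Hyou1, Hsp90b1 and Canx. Pdia6 was lower at an unadjusted p under 0.05 and by DESeq2, and 0 members were lower by limma-voom. Over all genes, in either direction, the deposited levels called 5664, DESeq2 6942 and limma-voom 6393, against 5714 by edgeR. The E12 and WT libraries did not overlap for 1 member, against 53.3% of all genes, and the members' median log2 fold change was 0.22, against 0.36 for all genes. Both comparisons use the same 3 WT libraries, so their values are not independent of each other.

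Between the mutants, 0 of the 10 genes were called in E12 against VF in the fit of all 9 libraries, where 2.18% of all genes were higher and 1.01% lower. Of the 10, 2 had an unadjusted p under 0.05 (Dnajb9 and Xbp1, both lower in E12), and DESeq2 called Dnajb9 and Dnajc3 lower. Over all genes, in either direction, DESeq2 called 1694, against 435 by edgeR. The libraries did not overlap for 4 members, against 59.5% of all genes. In a fit of the 6 mutant libraries alone, which leaves the spread of the WT libraries out, 1 member (Canx) was higher and 3 (Dnajb9, Dnajc3 and Xbp1) were lower, where 25.4% of 13350 genes were higher and 22.6% lower.

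**Figure D3:**
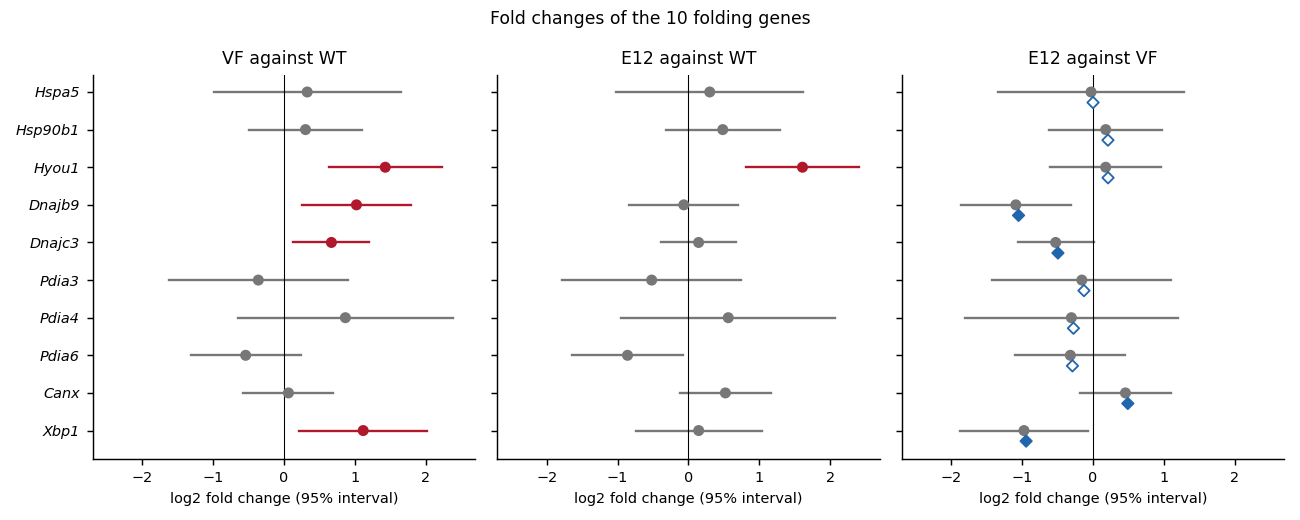
log2 fold change (horizontal axis) of each gene with its 95% interval, from the fit of all 9 libraries, in 3 panels, 1 for each comparison; red marks an adjusted p under 0.05 and grey the rest. Diamonds in the right panel give the fit of the 6 mutant libraries alone, filled where the adjusted p was under 0.05. Hyou1 is the only member in red in both comparisons with WT.

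Hyou1, a large Hsp70-like chaperone that works with Hspa5 as its nucleotide exchange factor, was higher in both mutants. It had 28.2, 31.8 and 42.7 CPM in VF and 38.9, 40.3 and 36.9 CPM in E12, against 7.67, 19.3 and 11.1 CPM in WT 50, 51 and 52. All 6 mutant libraries lay above all 3 WT libraries. The log2 fold change was 1.43 (SE 0.354, 95% interval 0.63 to 2.23, adjusted p = 0.00978) in VF and 1.61 (SE 0.356, interval 0.81 to 2.41, adjusted p = 0.00813) in E12. Between E12 and VF it was 0.18 (interval -0.60 to 0.96). Leaving out any 1 library kept both calls, and without WT 50 the log2 fold changes were 1.02 in VF and 1.20 in E12. On the deposited levels it was 0.83 (adjusted p = 0.0538) in VF and 1.08 (adjusted p = 0.0238) in E12. An offset for gene length ended both calls, at 0.14 (adjusted p = 0.760) in VF and 0.42 (adjusted p = 0.366) in E12.

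Hspa5, the central Hsp70 chaperone of the endoplasmic reticulum, was not called in any comparison of the counts, and was higher in VF than in WT on the deposited log2 levels. It had 1049.8, 976 and 1197 CPM in VF and 1248, 1094 and 818 CPM in E12, against 204, 799 and 1564 CPM in WT 50, 51 and 52. The WT libraries reached both below and above all the mutant ones. Its log2 fold change was 0.33 in VF (interval -0.99 to 1.65, adjusted p = 0.667) and 0.30 in E12 (interval -1.02 to 1.62, adjusted p = 0.709). At this spread no difference was detectable in the counts. Without WT 50 it was -0.23 in VF and -0.27 in E12, neither of them called, and on the deposited levels it was 1.94 in VF (adjusted p = 0.0293) and 1.59 in E12 (adjusted p = 0.0701).

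Dnajb9 and Dnajc3 are J-domain partners of Hspa5; Dnajb9 (ERdj4) is a known Xbp1 target that acts in the removal of misfolded proteins, and Dnajc3 (P58IPK) also restrains Eif2ak3. Both were higher in VF. Dnajb9 had 38.5, 37.1 and 41.5 CPM in VF and 14.7, 23.3 and 17.0 CPM in E12, against 25.7, 11.0 and 20.9 CPM in WT 50, 51 and 52. Its log2 fold change was 1.02 in VF against WT (SE 0.343, interval 0.25 to 1.80, adjusted p = 0.0342) and -0.07 in E12 against WT (adjusted p = 0.893). The VF libraries lay above all others, and E12 and WT overlapped. Leaving out VF 1, VF 2, VF 3, E12 5, WT 51 or WT 52 ended the call in VF, with adjusted p-values from 0.0504 (without E12 5) to 0.173 (without WT 51, where the log2 fold change was 0.54). The call also ended with RLE factors (0.84, adjusted p = 0.0825), no filter (adjusted p = 0.0948), DESeq2 (adjusted p = 0.0542), the fit of the VF and WT libraries alone (adjusted p = 0.0689), the length offset (0.996, adjusted p = 0.0686) and the deposited levels (0.57, adjusted p = 0.139).

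Dnajc3 had 179, 167 and 185 CPM in VF and 132, 133 and 103 CPM in E12, against 85.1, 118 and 131 CPM in WT 50, 51 and 52. Again the VF libraries lay above all the others. The log2 fold change was 0.67 in VF against WT (SE 0.237, interval 0.13 to 1.21, adjusted p = 0.0420) and 0.14 in E12 against WT (adjusted p = 0.655). Leaving out any 1 library other than WT 50 ended the call in VF, with adjusted p-values of 0.0560 to 0.123, and so did RLE factors (adjusted p = 0.0655), no filter (adjusted p = 0.126) and the fit of the VF and WT libraries alone (adjusted p = 0.0932), while the deposited levels gave 1.302 (adjusted p = 0.000496). Without WT 50 it was 0.39 (adjusted p = 0.0463), and with the length offset the sign turned, to -0.70 (adjusted p = 0.00656) in VF and -1.08 (adjusted p = 0.00215) in E12.

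Between the mutants both J-domain genes were lower in E12 in all 3 libraries. In the fit of all 9 libraries the log2 fold change of E12 against VF was -1.09 for Dnajb9 (SE 0.344, adjusted p = 0.131) and -0.53 for Dnajc3 (SE 0.237, adjusted p = 0.287). In the fit of the 6 mutant libraries it was -1.05 for Dnajb9 (SE 0.187, adjusted p = 0.00229) and -0.50 for Dnajc3 (SE 0.106, adjusted p = 0.00552). The values hardly moved, and the standard errors were smaller without the WT libraries.

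Hsp90b1 (GRP94), the Hsp90 chaperone of the compartment, was not called in the fit of all 9 libraries and was higher in both mutants than in WT on the deposited log2 levels. In E12 against VF, 1 of 21 alternatives, a fit of counts, called it higher in E12. It had 481, 469 and 536 CPM in VF and 607, 585 and 489 CPM in E12, against 444, 204 and 554 CPM in WT 50, 51 and 52. All groups overlapped. In VF the log2 fold change was 0.30 (interval -0.50 to 1.11, adjusted p = 0.501), and in E12 it was 0.48 (interval -0.32 to 1.29, adjusted p = 0.299). Unlike for Hspa5, WT 51 was the lowest library here. Without WT 51 the log2 fold change was -0.18 in VF and -0.0062 in E12. By the deposited levels it was 1.56 in both VF (adjusted p = 0.00306) and E12 (adjusted p = 0.00447). The kit does not mark strand, and Hsp90b1 overlaps the pseudogene 1810014B01Rik on the opposite strand, so reads from the overlap cannot be told apart. The same holds for Pdia3 with Catsper2 and Pdia6 with Atp6v1c2.

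Of the disulfide isomerases, which are oxidoreductases of the thioredoxin fold, 0 of 3 were called in any comparison of the fit of all 9 libraries. Pdia3 (ERp57), the isomerase that works with calnexin on glycoproteins, had 1274, 1269.7 and 1429 CPM in VF and 1351, 1196 and 1012 CPM in E12, against 391, 2495 and 2217 CPM in WT 50, 51 and 52. WT 50 lay below all mutant libraries and the other 2 WT libraries lay above all of them. Its log2 fold change was -0.36 in VF (adjusted p = 0.618) and -0.52 in E12 (adjusted p = 0.484). Without WT 50 it was -0.97 in VF (adjusted p = 0.00101) and -1.13 in E12 (adjusted p = 0.000603). On the deposited levels the sign turned, to 1.33 in VF (adjusted p = 0.155) and 0.88 in E12 (adjusted p = 0.356).

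Pdia6 (P5) had 454, 424 and 508 CPM in VF and 430, 358 and 323 CPM in E12, against 389, 983 and 644 CPM in WT 50, 51 and 52. Again WT 51 and WT 52 were above every mutant library, and WT 50 was not. The log2 fold change was -0.54 in VF (SE 0.345, adjusted p = 0.222) and -0.86 in E12 (SE 0.346, adjusted p = 0.0723). Without WT 50 it was -0.97 in VF (adjusted p = 0.00622) and -1.29 in E12 (adjusted p = 0.00169), and with the length offset -0.72 in VF (adjusted p = 0.0173) and -0.99 in E12 (adjusted p = 0.00737). In E12, leaving out WT 52 gave -1.15 (adjusted p = 0.0253). On the deposited levels the sign turned here too, to 0.75 in VF (adjusted p = 0.138) and 0.22 in E12 (adjusted p = 0.675). Pdia4 (ERp72), with 245, 238 and 301 CPM in VF and 247, 211 and 176 CPM in E12, against 20.9, 143 and 266 CPM in WT 50, 51 and 52, had the widest intervals of the set. Its log2 fold change was 0.87 in VF (interval -0.65 to 2.38) and 0.56 in E12 (interval -0.95 to 2.07), and without WT 50 the value in E12 was -0.054. The deposited levels called Pdia4 higher in VF, at 2.03 (adjusted p = 0.0185), and gave 1.39 in E12 (adjusted p = 0.0875).

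Canx, the membrane chaperone calnexin that retains glycoproteins, did not differ by call between VF and WT, at a log2 fold change of 0.06 (interval -0.57 to 0.70, adjusted p = 0.867). It had 579, 664 and 606 CPM in VF and 878, 782 and 878 CPM in E12, against 441, 537 and 791 CPM in WT 50, 51 and 52. The E12 libraries lay above all VF libraries and overlapped with WT 52. The log2 fold change of E12 against VF was 0.46 (SE 0.283, adjusted p = 0.454) in the fit of all 9 libraries and 0.49 (SE 0.0909, adjusted p = 0.00280) in the fit of the 6 mutant libraries. With the length offset Canx was lower than in WT in both mutants, at -1.15 (adjusted p = 0.000331) in VF and -0.61 (adjusted p = 0.0105) in E12. By the deposited levels it was higher than in WT in both, at 1.34 (adjusted p = 0.00954) in VF and 1.60 (adjusted p = 0.00575) in E12.

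Xbp1, the transcription factor of the response, was higher in VF than in WT. It had 302, 243 and 285 CPM in VF and 158, 153 and 111 CPM in E12, against 54.7, 159 and 168 CPM in WT 50, 51 and 52. All VF libraries lay above all the others, while E12 and WT overlapped. Relative to WT, its log2 fold change was 1.12 in VF (SE 0.399, interval 0.22 to 2.02, adjusted p = 0.0430) and 0.14 in E12 (adjusted p = 0.794). Leaving out any 1 of the 6 mutant libraries raised the adjusted p in VF to 0.0588 to 0.112, and leaving out any 1 WT library kept the call. It also ended with no filter (adjusted p = 0.0633) and in the fit of the VF and WT libraries alone (adjusted p = 0.0978), and on the deposited levels it was 1.95 (adjusted p = 0.00105). Without WT 50 the log2 fold change was 0.63 (adjusted p = 0.0150) and with the length offset 0.87 (adjusted p = 0.0143). Between the mutants it was -0.97 in E12 against VF (SE 0.398, adjusted p = 0.237) in the fit of all 9 libraries and -0.94 (SE 0.141, adjusted p = 0.000968) in the fit of the 6 mutant libraries. Counts per gene do not separate the spliced from the unspliced messenger RNA.

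Gene length moved with the comparisons with WT. In VF against WT the median log2 fold change over all genes was -1.77 for genes under 1 kb, -0.79 from 1 to 2 kb, 0.24 from 2 to 3 kb, 0.89 from 3 to 5 kb and 1.22 over 5 kb. In E12 against WT it was -1.84, -0.80, 0.26, 0.90 and 1.11 in the same classes. Between E12 and VF no class was further from 0 than -0.16. The members span 1865 bases (Dnajb9) to 5190 bases (Dnajc3), with Hyou1 at 4432 and Canx at 4289 bases. The plot of fold change against length shows Hyou1 above the median of its class in both comparisons, and Canx and Dnajc3 below that of theirs. The length offset moved the median of all genes from 0.36 to -0.24 in VF against WT and from 0.36 to -0.15 in E12 against WT. With it, 1 member (Xbp1) was higher and 3 (Dnajc3, Canx and Pdia6) were lower in VF, and 0 were higher and the same 3 lower in E12. In E12 against VF it gave 1 higher, Canx at 0.54 (adjusted p = 0.0388), and 1 lower, Xbp1 at -0.92 (adjusted p = 0.0398).

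**Figure D4:**
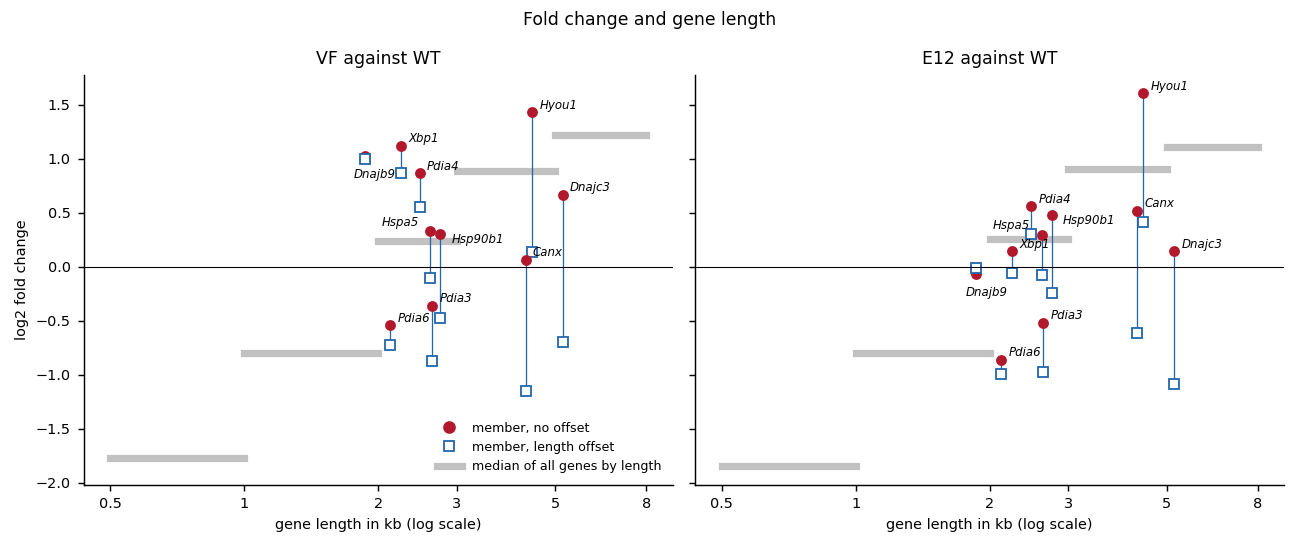
log2 fold change (vertical axis) against gene length in kb (horizontal axis, log scale) for VF against WT and E12 against WT. Filled circles are the members without and open squares with the length offset, joined by a line, and grey bars are the medians of all genes in 5 length classes, which climb from -1.77 to 1.22 in VF against WT.

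The genes that work beside the members moved in both directions. Of 107 genes in 8 lists of the compartment, 26 were higher and 32 lower in VF than in WT, and 32 were higher and 27 lower in E12 than in WT. As shares, 24.3% were higher and 29.9% lower in VF, against 27.7% and 20.9% of all genes, and 29.9% were higher and 25.2% lower in E12, against 23.9% and 18.1% of all genes. The shares of all genes are also the background for the counts of each single list below, and no list was tested as a set. The median log2 fold change of the 107 genes was 0.05 in VF and 0.16 in E12, against 0.36 for all genes in both. The higher genes had a median length of 3898 bases in VF and 4108 bases in E12, and the lower ones 1425 and 1183 bases. With the length offset the counts were 17 higher and 43 lower in VF, and 16 higher and 27 lower in E12. On the authors' log2 levels they were 42 and 22 in VF and 35 and 19 in E12, and with RLE factors 25 and 32 in E12. Over all genes, in either direction, those levels called 6772 in VF and 5664 in E12, and RLE factors called 5752 in E12. Between E12 and VF 0 were called, 8 had an unadjusted p under 0.05 with a higher and 3 with a lower value in E12, and DESeq2 called 6 higher and 3 lower. In the fit of the 6 mutant libraries alone 40 were higher and 15 lower, where 25.4% of all genes were higher and 22.6% lower.

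**Figure D5:**
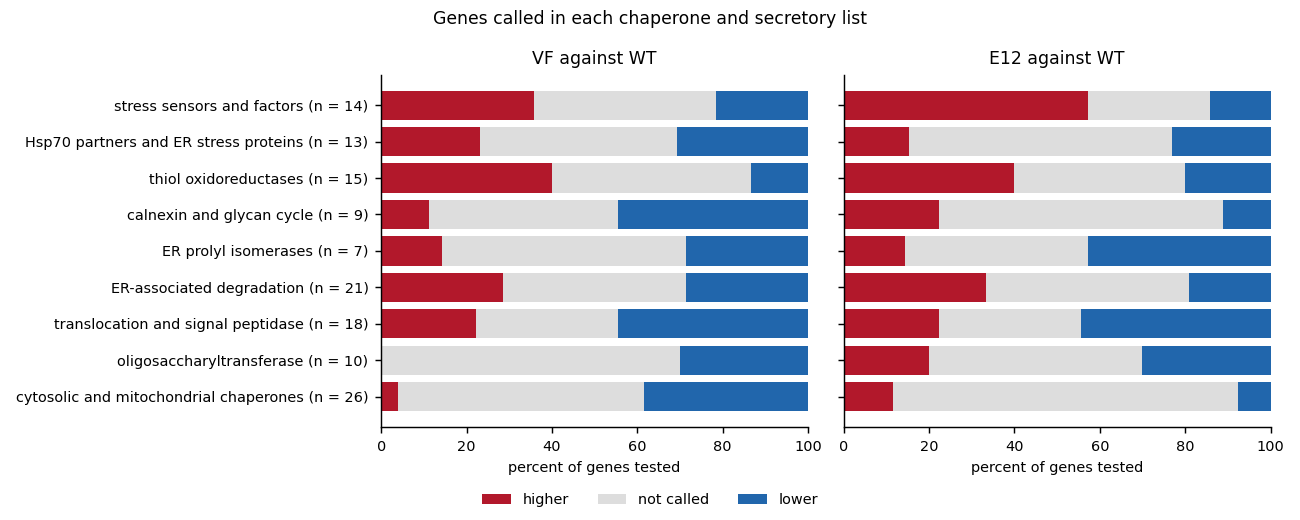
Percent of tested genes called higher (red), lower (blue) or not called (grey) in each list (rows, with the number of genes tested), for VF against WT and E12 against WT. The stress sensors and factors show 5 of 14 higher in VF and 8 of 14 in E12, and the cytosolic and mitochondrial chaperones show 10 of 26 lower in VF and 2 of 26 in E12. Over all genes tested, 27.7% were higher and 20.9% lower in VF, and 23.9% were higher and 18.1% lower in E12.

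Among the stress sensors and factors, 5 of 14 were higher and 3 lower in VF, and 8 were higher and 2 lower in E12. The sensor Atf6 averaged 32.7 ± 3.38 CPM in VF and 33.3 ± 4.13 CPM in E12, against 12.3 ± 3.996 CPM in WT (SD, n = 3 each), with log2 fold changes of 1.42 (adjusted p = 0.00432) and 1.44 (adjusted p = 0.00583). Ppp1r15b, a subunit that helps reverse the block of translation by Eif2ak3, was higher in both, at 0.93 in VF and 1.77 in E12. Ddit3 (CHOP), a factor induced by prolonged stress, was lower in both, with 30.5 to 36.4 CPM in VF and 38.6 to 43.1 CPM in E12, against 62.3 to 366 CPM in WT. Its log2 fold change was -2.38 in VF (adjusted p = 0.00865) and -2.09 in E12 (adjusted p = 0.0173). Atf4, the factor downstream of Eif2ak3, was lower in VF, at -1.24 (adjusted p = 0.00480), and was not called in E12, at -0.24. Trib3, a target of Atf4 and Ddit3, had 0 counts in all 3 WT libraries, 208 counts over the VF libraries and 717 over the E12 libraries. Against 3 counts over the WT group it was at least 70.7-fold higher in VF and at least 254-fold higher in E12, where 1 library (E12 5) reached 23.3 CPM and the other 2 had 1.80 and 5.11 CPM. Creb3 was lower in both, at -1.68 in VF and -1.51 in E12. Under the length offset 3 were higher and 5 lower in VF, and 4 higher and 1 lower in E12. Atf6 was then not called in either, at -0.075 in VF and 0.15 in E12, Ppp1r15b was lower in VF, at -0.45, and Ddit3 was not called in E12, at -0.39.

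Among the Hsp70 partners and stress proteins, 3 of 13 were higher and 4 lower in VF, and 2 were higher and 3 lower in E12. Hspa13, an Hsp70-like ATPase of the microsomes, was higher in both, at 1.93 in VF (adjusted p = 0.00560) and 1.85 in E12 (adjusted p = 0.00868). The J-domain reductase Dnajc10 was higher in both, at 0.96 in VF and 1.45 in E12, and Dnajc1 in VF, at 1.12. Sil1, the other nucleotide exchange factor of Hspa5, was lower in both, in contrast to Hyou1. It had 43.3 to 51.1 CPM in VF and 36.4 to 43.2 CPM in E12, against 67.3 to 94.0 CPM in WT, at -0.76 in VF (adjusted p = 0.0179) and -0.97 in E12 (adjusted p = 0.00838). Sdf2 was lower in both, at -1.63 in VF and -2.14 in E12, and the J-domain gene Dnajb14 was lower in VF, at -1.33. Under the length offset 1 of the 13 was higher and 5 were lower in VF, and 0 were higher and 5 lower in E12. Dnajc10 was then called in neither mutant, Dnajc1 and Sdf2 were not called in VF, and Hspa13 was not called in E12, while Sil1 stayed lower in both.

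Of 15 further thiol oxidoreductases, 6 were higher and 2 lower in VF, and 6 were higher and 3 lower in E12. The transmembrane enzymes Tmx4 and Tmx3 were higher in both. Tmx4 averaged 80.6 ± 12.1 CPM in VF and 58.1 ± 2.89 CPM in E12, against 11.0 ± 1.45 CPM in WT (SD, n = 3 each), at log2 fold changes of 2.87 (adjusted p = 0.000129) and 2.40 (adjusted p = 0.000532). Tmx3 stood at 3.21 in VF and 3.02 in E12. The peroxiredoxin Prdx4, which passes oxidizing power to the isomerases, was lower at -2.36 in VF and -1.76 in E12, and Erp29 was lower at -1.78 in VF and -1.19 in E12. Txndc12 was lower in E12, at -1.38. The length offset left 3 of the 15 higher and 3 lower in VF, and 3 higher and 0 lower in E12. Tmx3 and Tmx4 stayed higher in both, and Prdx4, Erp29 and Txndc12 were not called in E12.

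In the calnexin and glycan cycle, 1 of 9 genes was higher and 4 lower in VF, and 2 were higher and 1 lower in E12. Uggt1, the enzyme that returns misfolded glycoproteins to calnexin, was higher in both, at 1.44 in VF (adjusted p = 0.0135) and 1.28 in E12 (adjusted p = 0.0257). Ganab, the catalytic subunit of glucosidase II, was higher in E12, at 1.21, and stood at 0.90 in VF without a call. The cargo lectin Lman2 was lower in both, at -2.09 in VF and -1.98 in E12, and the glucosidase Mogs was lower in VF, at -1.13. Of the 7 prolyl isomerases, 1 was higher and 2 lower in VF, and 1 was higher and 3 lower in E12. Ppib, cyclophilin B, was lower in both, at -1.94 in VF and -1.55 in E12, as was Fkbp2, at -2.14 in VF and -2.25 in E12, while Fkbp9 was higher in both, at 2.46 in VF and 1.25 in E12. Once offset for length, the calnexin list had 1 higher and 4 lower in each mutant, and the prolyl isomerases 2 higher and 1 lower in VF and 0 of either in E12. Uggt1 and Fkbp2 were then called in neither mutant, Ganab, Ppib and Fkbp9 were not called in E12, and Lman2 stayed lower in both.

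Of 21 genes of degradation from the compartment, 6 were higher and 6 lower in VF, and 7 were higher and 4 lower in E12. Edem3 and Man1b1, mannosidases that mark glycoproteins for removal, were higher in both. Edem3 averaged 20.4 ± 2.90 CPM in VF and 26.8 ± 1.74 CPM in E12, against 2.30 ± 1.27 CPM in WT (SD, n = 3 each), at 3.15 (adjusted p = 0.00109) and 3.54 (adjusted p = 0.00140). Man1b1 stood at 1.51 in VF and 1.90 in E12. Selenos, a membrane selenoprotein of the export complex, was lower at -1.92 in VF and -2.23 in E12, and Ufd1, a cofactor of the Vcp ATPase, was lower at -1.94 in VF and -1.75 in E12. Offset for length, 3 of the 21 were higher and 10 lower in VF, and 4 were higher and 8 lower in E12, and among the named genes only Man1b1 in VF lost its call.

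Of 18 genes of translocation and signal peptide cleavage, 4 were higher and 8 lower in both VF and E12. Tram1, a membrane protein beside the translocon, averaged 288 ± 20.3 CPM in VF and 276 ± 20.1 CPM in E12, against 37.5 ± 24.9 CPM in WT (SD, n = 3 each), at log2 fold changes of 2.94 (adjusted p = 0.00107) and 2.88 (adjusted p = 0.00215). Subunits of 1 complex went in opposite directions. In the signal peptidase Spcs3 was higher, at 1.87 in VF and 2.02 in E12, while Spcs2 was lower, at -1.52 in VF and -1.63 in E12, and so was Sec11a, at -2.33 in VF and -2.23 in E12. In the translocon-associated complex Ssr3 was higher, at 1.78 in VF and 1.74 in E12, while Ssr2 was lower, at -1.75 in VF and -1.38 in E12. Of the 10 oligosaccharyltransferase genes, 0 were higher and 3 lower in VF, also with 0 higher at an unadjusted p under 0.05, and 2 were higher and 3 lower in E12. The small subunits Dad1, Ostc and Krtcap2 were lower in both, Dad1 at -2.29 in VF and -1.90 in E12, and the catalytic subunit Stt3b and the oxidoreductase subunit Magt1 were higher in E12, at 0.86 and 0.94. After the length offset, translocation genes numbered 4 higher and 10 lower in VF and 4 higher and 7 lower in E12, and the oligosaccharyltransferase 0 higher and 5 lower in VF and 0 higher and 2 lower in E12. Tram1, Spcs3 and Ssr3 stayed higher and Spcs2, Sec11a and Dad1 stayed lower in both, Ssr2 was not called in E12, Ostc and Krtcap2 were called in neither mutant, and Stt3b and Magt1 were not called in E12.

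Outside the compartment, 1 of 26 cytosolic and mitochondrial chaperones was higher and 10 were lower in VF, and 3 were higher and 2 lower in E12. Over all genes, 27.7% were higher and 20.9% lower in VF, and 23.9% were higher and 18.1% lower in E12. Without WT 50 the chaperones called lower numbered 20 in VF and 13 in E12. Leaving it out also raised the calls over all genes, in either direction, from 6612 to 8379 in VF and from 5714 to 7337 in E12. Hsp90ab1, the constitutive cytosolic Hsp90, was lower in both, with 1645 to 1876 CPM in VF and 2234 to 2711 CPM in E12, against 3838 to 7058 CPM in WT. Its log2 fold change was -1.52 in VF (adjusted p = 0.00636) and -1.001 in E12 (adjusted p = 0.0386). The chaperonin subunit Cct5 was lower in both, at -1.60 in VF and -1.13 in E12. The inducible Hsp90aa1 and the mitochondrial Hspe1 were lower in VF, at -2.27 and -3.02, and Hspa4l was higher in both, at 0.87 in VF and 1.66 in E12. Hspa4 was higher in E12, at 1.09. On the authors' log2 levels the difference of Hsp90ab1 was 0.054 in VF and 0.53 in E12, and that of Cct5 was 0.13 in E12. Under the length offset 0 were higher and 20 lower in VF and 0 higher and 8 lower in E12, and neither Hspa4l nor Hspa4 was called.

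Across the 9 libraries the members did not share 1 pattern. The highest Pearson correlations of log2 CPM were 0.978 between Hspa5 and Pdia4 and 0.972 between Dnajc3 and Xbp1, and the lowest was -0.721 between Hsp90b1 and Pdia6. Outside the set, the genes most like Hspa5 over the 9 libraries were Hsd17b4 at 0.997, Ciz1 at 0.993, Pfkl at 0.992, Mapre2 at 0.988 and Ppme1 at 0.985. Each of these 5 was lowest in WT 50, as Hspa5 was, and Hsd17b4 had 74.0 to 114 CPM in the 6 mutant libraries, against 14.7, 69.0 and 151 CPM in WT 50, 51 and 52. These correlations describe 9 libraries, and libraries of 1 group share their series and roughly their depth.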

How the data were processed

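RNA of sorted MEP was extracted with PicoPure and made into libraries with SmartSeq 2, per the labels' protocols, a method without strand or molecular identifiers. The deposited gene counts are whole numbers with the authors' gene length for each gene. The authors also deposited log2 expression levels, used only as an alternative. The submitters' processing notes name STAR, limma, GRCm38 and mm10, without versions; the counting tool is not given in the sources used here, and neither is the annotation. In each library, 8 rows without a symbol were left out; they held 0.0020% to 0.0128% of counts.

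Counts were tested with edgeR 4.0.16 in R 4.3.3 (filterByExpr, TMM factors, glmQLFit and glmQLFTest on all 9 libraries with group as the only term). Two-sided p-values were adjusted (Benjamini-Hochberg) across the 13602 genes tested, and genes under 0.05 were called. Intervals are at 95%. The smallest p an exact permutation test could give with these group sizes is 0.1. CPM use the TMM factors and cover counting of reads, not molecules. Correlations used log2(CPM + 0.5). The alternatives comprised DESeq2 1.42.0, limma-voom (limma 3.58.1), the deposited log2 levels tested with limma, RLE or upper-quartile scaling, other filters on low counts, fits of the 2 groups compared, an offset for gene length (lowess, span 0.3), library sizes without hemoglobin genes, left-out libraries and a replicate block. The fit was also run on simulated counts that gave each gene the same spread in all groups. That run cannot speak to the wider spread of the WT libraries, and no conclusion is drawn from it.

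The members and lists were chosen with earlier results of these data known. Of each list, up to 2 called genes with the smallest p in each direction and comparison are named, plus Jak2 and the 5 genes nearest Hspa5 in correlation. Promoters are from RefSeq. Figures were drawn with matplotlib 3.10.9.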

Additional observations from a re-analysis of the deposited data

How the results depend on the processing

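Of the alternatives run, 20 for each comparison with WT and 21 for E12 against VF, those that moved a count or turned a direction are given here; the cause was not tested unless the setting itself gives it. Of the members' fold changes under them, 142 in VF against WT, 164 in E12 against WT and 183 in E12 against VF kept their direction and side of the threshold, 33, 1 and 0 kept the direction and lost a call, 9, 11 and 21 kept it and gained one, and 16, 24 and 6 turned, of which 2, 2 and 0 were called. Hyou1 was called in 18 of 20 alternatives in VF against WT, not on the deposited levels or with the length offset, and in 19 of 20 in E12 against WT. Members higher in VF against WT numbered 4, and 6 on the deposited levels, 3 by DESeq2, 2 with RLE factors, 1 with no filter, 1 in the fit of 2 groups, 1 with the length offset and 1 to 4 when single libraries were left out. Members lower there numbered 0, and 3 with the length offset, 2 without WT 50 and E12 5, and 0 to 2 with single libraries left out. Members higher in E12 against WT numbered 1, and 3 on the deposited levels and 0 with the length offset. Members lower there numbered 0, and 1 with RLE factors, 1 with no filter, 1 by DESeq2, 3 with the length offset, 2 without WT 50 and E12 5, and 0 to 2 with single libraries left out. In E12 against VF, members higher numbered 0, and 1 in the fit of 2 groups, 1 with the length offset and 0 to 1 with single libraries left out. Members lower there numbered 0, and 2 by DESeq2, 3 on the deposited levels, 3 in the fit of 2 groups, 1 with the length offset, 1 without WT 50 and E12 5, and 0 to 3 with single libraries left out.

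Genes called in E12 against VF numbered 435, and 1694 by DESeq2, 923 by limma-voom, 1783 on the deposited levels, 6410 in the fit of 2 groups, 1414 with the length offset, 2552 without WT 50 and E12 5, and 19 (without VF 3) to 3286 (without WT 50) with single libraries left out. Genes called in E12 against WT numbered 5714, and 2967 in the fit of 2 groups, and 3609 (without E12 2) to 7337 (without WT 50) with single libraries left out. They numbered 5752 with RLE factors, 5440 with no filter, 4547 with the length offset and 6686 without WT 50 and E12 5. In VF against WT 6612 genes were called, and 6643 with RLE factors, 6549 with no filter and 5019 in the fit of 2 groups. There the length offset gave 6478, and leaving out WT 50 and E12 5 gave 8280.

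The following log2 fold changes changed sign. With RLE factors they were -0.071 for Canx in VF against WT, and -0.048 for Dnajc3 and -0.017 for Xbp1 in E12 against WT. With no filter the same 3 were -0.092, -0.031 and -0.011, and by DESeq2 -0.072, -0.049 and -0.017. By limma-voom Pdia3 was 0.052 in VF against WT and Dnajb9 0.057 in E12 against WT. On the deposited levels Pdia3 was 1.33 and Pdia6 0.75 in VF against WT, and 0.88 and 0.22 in E12 against WT. With the length offset Hspa5 was -0.10, Hsp90b1 -0.48, Dnajc3 -0.70 and Canx -1.15 in VF against WT, Hspa5 was -0.076, Hsp90b1 -0.25, Dnajc3 -1.08, Canx -0.61 and Xbp1 -0.053 in E12 against WT, and Hspa5 was 0.026 in E12 against VF. Without WT 50 and E12 5, Hspa5 was -0.20 and Canx -0.19 in VF against WT, Hspa5 was -0.038, Dnajb9 0.23 and Xbp1 -0.12 in E12 against WT, and Hspa5 was 0.17 in E12 against VF. With single libraries left out, values in VF against WT ran from -0.22 to 0.11 for Canx, -0.18 to 0.35 for Hsp90b1 and -0.23 to 0.85 for Hspa5. Those in E12 against WT ran from -0.54 to 0.10 for Dnajb9, -0.14 to 0.26 for Dnajc3, -0.0062 to 0.58 for Hsp90b1, -0.27 to 0.82 for Hspa5, -0.054 to 1.12 for Pdia4 and -0.35 to 0.29 for Xbp1. Hspa5 in E12 against VF ran from -0.17 to 0.12. Of the called list genes named above, 40 in VF and 39 in E12 against WT, the length offset ended the call of 5 and 16 and turned 6 and 3. Turned in VF were Atf6 (-0.075), Ppp1r15b (-0.45, the only one of them called), Dnajc1 (-0.30), Dnajc10 (-0.21), Krtcap2 (0.23) and Hspa4l (-0.26), and in E12 Stt3b (-0.31), Magt1 (-0.32) and Hspa4 (-0.080). On the deposited levels Hsp90ab1 turned to 0.054 in VF and 0.53 in E12, and Cct5 to 0.13 in E12, and 8 calls ended in each. Fits of 2 groups ended 7 and 17. Of the calls in VF, leaving out VF 1, VF 2 or VF 3 ended 7, 6 and 8, and any other single library 0 to 2. Of those in E12, leaving out E12 1, E12 2 or E12 5 ended 12, 17 and 13, and any other single library 0 to 5.

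VF and E12 share the numbers 1 and 2. The deviations of same-numbered libraries correlated at 0.030 and 0.12, and those of differently numbered ones at -0.0029 and 0.14. So few libraries cannot tell whether an equal number marks a pairing. With the replicate number as a block in a fit of those 4 libraries (the replicate block), 5428 genes, 2 members higher and 3 lower were called in E12 against VF, with Hspa5 at 0.23 and Pdia3 at 0.021. The 5428 genes are in either direction. With 2 groups and a block fitted to 4 libraries, almost no degrees of freedom are left for the spread. Those calls therefore do not show a pairing. No other comparison shares replicate numbers. Depth of 19254889 counts or more left every member well above the filter. The 3 WT libraries spread more than the mutant ones and have another length profile.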
